A study of Mus musculus with 18 samples.

Results

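The genes described here are 35 protein components of the spliceosome, the particle that removes introns from pre-mRNA. They were taken by symbol from the raw count tables, in which they are 35 of 55487 genes, and each symbol was found. The list covers the proteins that recognise the 3' splice site, the SF3A and SF3B complexes and core proteins of the U2 snRNP, the Sm ring shared by several snRNPs, and proteins of the U4/U6.U5 tri-snRNP, together with 2 factors of the catalytic steps. In the cells studied, the gene lowered by shRNA was Smndc1, which encodes a Tudor-domain protein (also named SPF30) of the same machine.

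The cells were alphaTC1, a mouse line derived from pancreatic alpha cells. In the first experiment, cells transduced with an Smndc1 shRNA (shSmndc1, 3 libraries) were set against cells with an empty vector (EV, 3 libraries), both 5 days after transduction. In the second, the cells also received RIP-mCherry, a red fluorescent reporter under the rat insulin promoter. Its shRNA cells were sorted into reporter-positive (4 libraries) and reporter-negative (4 libraries) populations, and its control carried the empty vector and the reporter (EV_RIP, 4 libraries). For the second experiment the labels give no day, and they do not state whether EV_RIP cells were sorted. The labels name neither a cell clone nor separate cultures, so each p-value below reflects how far these libraries scatter, and that scatter could be technical only.

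Introns are marked by a branch site and a 3' splice site. SF1 and the U2AF heterodimer bind these first, and the U2 snRNP then pairs with the branch site, held there by SF3A and SF3B. The tri-snRNP brings U4, U5 and U6 snRNA; the helicase SNRNP200 unwinds U4 from U6, PRPF8 forms the scaffold of the catalytic centre, and the SMNDC1 protein has been placed, in biochemical work on human extracts, at the joining of the tri-snRNP to the U2-bound intron.

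The 18 libraries held between 8084574 and 103048766 counts, and the lowest count of any of the 35 genes in any library was 256, so each passed the filter on low counts in every fit. Smndc1, the targeted gene, stood at 10.4, 9.52 and 10.5 CPM (counts scaled to the library's total) in shSmndc1, against 41.9, 40.2 and 35.1 CPM in EV, a difference of -1.94 ± 0.13 on the log2 scale (log2 fold change ± SE, as throughout; edgeR adjusted p = 0.00145, from the quasi-likelihood test over all genes). It stood at 16.6, 22.4, 16.0 and 25.2 CPM in reporter-positive cells and 23.9, 43.4, 36.3 and 44.6 CPM in reporter-negative cells, against 37.6, 54.9, 39.3 and 46.3 CPM in EV_RIP. The difference from EV_RIP passed the test in reporter-positive cells (-1.15 ± 0.20, edgeR adjusted p = 0.00384) and not in reporter-negative cells (-0.27 ± 0.20, edgeR adjusted p = 0.378). The 8 alpha cell markers, of which Gcg was the highest, summed to between 5815 and 21081 CPM per library. Markers of fibroblasts, leukocytes, endothelium, and acinar and duct cells summed to at most 25.1 CPM per list, with Lum at 0 counts in every library. Beta cell markers, mostly Nkx6-1, summed to 65.5 to 94.7 CPM in reporter-positive cells. The sum was 58.1 to 82.0 CPM in reporter-negative cells and 55.8 to 77.5 CPM in EV_RIP. In the first experiment it was 48.9 to 54.7 CPM in shSmndc1 and 57.3 to 59.7 CPM in EV. Ins2 was at 6.12 to 13.7 CPM in reporter-positive cells, 1.59 to 5.13 CPM in reporter-negative cells and 0.518 to 3.39 CPM in EV_RIP. Its range was 2.21 to 3.63 CPM in shSmndc1 and 0.123 to 0.506 CPM in EV. Endothelial markers summed to 1.03 to 3.30 CPM in reporter-positive and 1.81 to 4.21 CPM in reporter-negative cells, against 1.10 to 1.56 CPM in EV_RIP, with Cdh5 at no more than 0.201 CPM in any library. Leukocyte markers summed to 7.20 to 13.0 CPM in reporter-positive and 8.43 to 18.3 CPM in reporter-negative cells, against 6.19 to 8.63 CPM in EV_RIP. Cd68 made up nearly all of this sum. Ptprc was at no more than 0.481 CPM and Cd3e at no more than 0.0262 CPM in any library. Markers of delta, PP and epsilon cells summed to 0.969 to 1.58 CPM in reporter-positive and 1.23 to 3.53 CPM in reporter-negative cells, against 0.646 to 0.955 CPM in EV_RIP, without overlap. In the first experiment that sum was 1.62 to 2.66 CPM in shSmndc1 and 1.24 to 1.52 CPM in EV. In both experiments Ghrl made up most of it. Sst, Hhex and Ppy were each at no more than 0.357 CPM in any library. The alpha cell sum was 15870.3 to 21081 CPM in reporter-positive and 9497 to 13947 CPM in reporter-negative cells, against 9389.6 to 13244 CPM in EV_RIP. Reporter-negative libraries 3 and 4 stood apart, with 161 and 45.4 CPM of the small nuclear RNA Rn7sk, against 5.24 to 14.2 CPM in EV_RIP, and library 3 was the shallowest of all. Negative libraries 1 and 2 held 4.53 and 18.6 CPM of Rn7sk. Reporter-positive libraries held 2.44 to 4.68 CPM, all below EV_RIP. In EV_RIP library 1 mitochondrial transcripts took 0.587% of counts, against 2.34 to 4.76% in every other library of the 2 experiments. The nuclear RNA Malat1 was at 287 to 670 CPM in reporter-positive and 450 to 688 CPM in reporter-negative cells, against 109 to 286 CPM in EV_RIP, and the part of these markers and RNAs in the results of either experiment was not tested.

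In EV cells the 35 genes spanned levels per length from 7.96 ± 0.671 FPKM for Cdc40 to 175 ± 20.6 FPKM for Snrpb (mean ± SD, n = 3), on the deposited FPKM scale. Snrpb, which encodes the SmB protein of the Sm ring, was the highest and Cdc40 the lowest in all 5 groups. Among genes with a mean of at least 1 FPKM in EV, Snrpb stood at percentile 97.7 and Cdc40 at percentile 44.1. After Snrpb in EV came U2af2 (132 ± 11.5 FPKM), U2af1 (131 ± 16.7 FPKM), Sf3b2 (113 ± 11.6 FPKM) and Eftud2 (105 ± 9.27 FPKM). In this order U2af2 and U2af1 did not differ beyond their SD, nor did Sf3b2 and Eftud2. The lowest after Cdc40 were Sf3b5 (12.1 ± 0.651 FPKM), Prpf3 (14.9 ± 1.89 FPKM) and Prpf4 (15.0 ± 1.92 FPKM). Prpf3 and Prpf4, whose proteins bind each other in the U4/U6 snRNP, thus had the same level within their spread in EV. Prpf8 held rank 4 with 114 ± 5.44 FPKM in shSmndc1, against rank 8 with 78.7 ± 2.63 FPKM in EV.

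**Figure D1:**
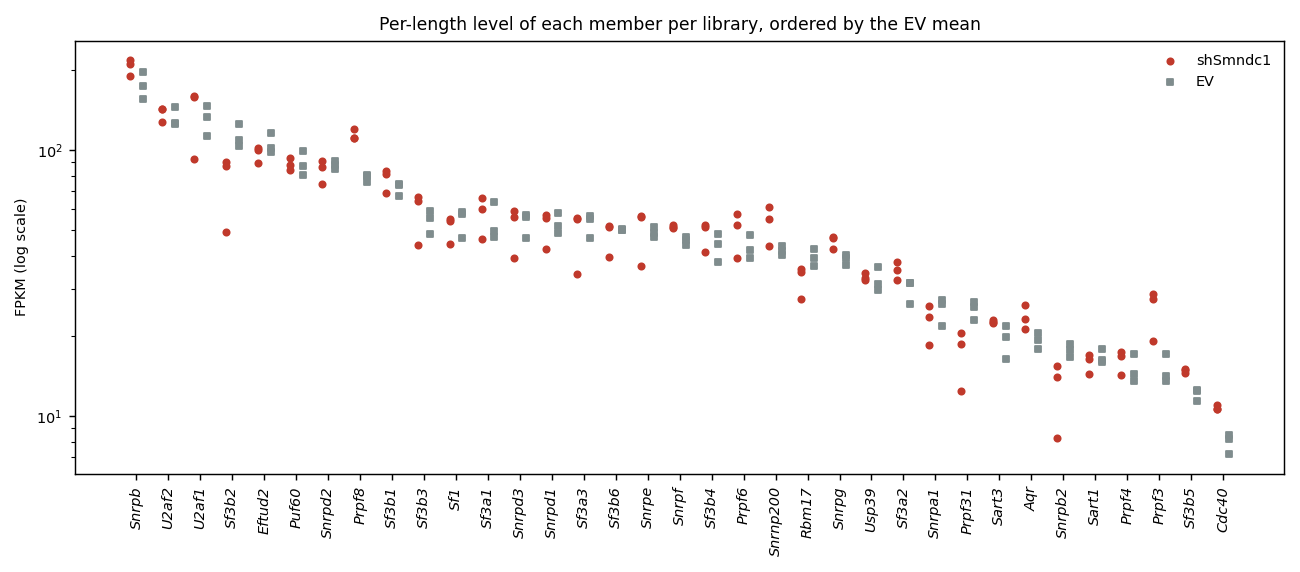
Deposited FPKM (vertical axis, log scale) of each of the 35 genes in the 3 shSmndc1 libraries (circles) and the 3 EV libraries (squares), ordered by the EV mean. Most genes overlap between the groups, whereas Prpf8, Prpf3 and Cdc40 lie higher in shSmndc1. Sf3a2, Sf3b5, Snrpf, Snrpg, Sart3 and Aqr also lie higher, and Sf3b2, Snrpb2, Prpf31 and Rbm17 lower, without overlap and without passing the test.

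Together the 35 genes took 0.580 ± 0.0402% of all counts in shSmndc1 and 0.524 ± 0.0156% in EV (SD, n = 3 each). In the second experiment the share was 0.632 ± 0.0264% in reporter-positive and 0.648 ± 0.0465% in reporter-negative cells, against 0.556 ± 0.0355% in EV_RIP (SD, n = 4 each). Their summed level per length was 1963 ± 241 FPKM in shSmndc1 and 1892 ± 120 FPKM in EV, and 2295 ± 87.0 FPKM in reporter-positive and 2280 ± 86.9 FPKM in reporter-negative cells, against 2193 ± 146 FPKM in EV_RIP. The summed levels overlapped between groups, while the count share, which weights long transcripts more, was higher in shSmndc1 than in EV without overlap. The margin was narrow, with the lowest shSmndc1 library at 0.536% and the highest EV library at 0.535%. The reporter-positive share, 0.602 to 0.666%, was also wholly above that of EV_RIP, 0.522 to 0.600%. The reporter-negative share, 0.581 to 0.682%, overlapped EV_RIP. These sums and shares were not tested.

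Prpf3, Prpf8 and Cdc40 were the members that passed the test in shSmndc1 against EV, all 3 higher. That is 3 of 35 higher and 0 lower, beside 14.7% of all 18202 genes tested (7.22% higher, 7.5% lower). Over the 35 genes the median log2 fold change was 0.07 and the median absolute one 0.14, against -0.003 and 0.32 over all genes tested, and 10 of 35 reached an unadjusted p below 0.05, against 5923 of all 18202 genes. In reporter-positive cells against EV_RIP, Prpf3, Prpf8, Snrnp200 and Sart3 were higher and Sf3b2 and Sf3b6 lower, 6 of 35 beside 17.4% of all 18897 genes tested (8.47% higher, 8.92% lower). The median log2 fold change of the 35 was 0.08 and the median absolute one 0.12, against 0.001 and 0.31 over all genes. In reporter-negative cells against EV_RIP, Prpf3, Prpf8 and Snrnp200 were higher, 3 of 35 beside 13.9% of all genes tested (8.17% higher, 5.69% lower), with medians of 0.06 and 0.19 over the 35, against -0.009 and 0.30 over all genes. The share of members past the threshold was near or below the background in each comparison. Prpf3 and Prpf8 were among them in all 3 comparisons and Snrnp200 in both of the second experiment. The comparisons with EV_RIP share those 4 control libraries.

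Promoter sequences are shown for the genes that turned up in more than 1 comparison, Prpf3, Prpf8 and Snrnp200, and for Prpf4, the U4/U6 partner of Prpf3 that passed in none of them. They come from RefSeq (GRCm38.p6) and run from 250 bases before to 50 bases after the annotated start on the gene's own strand. The Prpf3 window is chr3:95855836-95856135 on the minus strand, that of Prpf8 chr11:75486527-75486826 on the plus strand, that of Snrnp200 chr2:127208136-127208435 on the plus strand, and that of Prpf4 chr4:62408533-62408832 on the plus strand. Capitals mark the GC box GGGCGG on either strand.
Prpf3: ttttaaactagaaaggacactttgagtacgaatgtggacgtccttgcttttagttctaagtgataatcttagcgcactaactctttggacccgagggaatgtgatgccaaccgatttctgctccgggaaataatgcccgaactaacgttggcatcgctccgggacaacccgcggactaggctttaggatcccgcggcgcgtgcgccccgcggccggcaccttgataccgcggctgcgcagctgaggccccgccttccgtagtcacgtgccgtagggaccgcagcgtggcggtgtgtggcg
Prpf8: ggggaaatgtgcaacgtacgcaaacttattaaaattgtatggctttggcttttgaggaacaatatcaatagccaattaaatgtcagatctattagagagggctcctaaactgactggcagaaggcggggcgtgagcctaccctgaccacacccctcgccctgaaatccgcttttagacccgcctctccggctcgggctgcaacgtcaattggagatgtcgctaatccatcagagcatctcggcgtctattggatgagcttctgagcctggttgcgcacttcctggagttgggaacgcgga
Snrnp200: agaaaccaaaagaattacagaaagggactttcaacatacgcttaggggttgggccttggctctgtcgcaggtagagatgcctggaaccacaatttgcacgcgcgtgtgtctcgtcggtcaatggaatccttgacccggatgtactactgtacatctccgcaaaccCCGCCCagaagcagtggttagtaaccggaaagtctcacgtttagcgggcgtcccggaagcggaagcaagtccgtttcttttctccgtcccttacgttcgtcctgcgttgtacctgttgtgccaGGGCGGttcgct
Prpf4: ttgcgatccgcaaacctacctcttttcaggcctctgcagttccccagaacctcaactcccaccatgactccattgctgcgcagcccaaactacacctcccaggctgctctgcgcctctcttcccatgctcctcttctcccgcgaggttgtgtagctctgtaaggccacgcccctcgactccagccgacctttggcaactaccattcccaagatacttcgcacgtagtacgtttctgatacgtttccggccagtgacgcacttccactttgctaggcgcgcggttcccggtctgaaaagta
The Snrnp200 window holds 2 GC boxes, beginning at -85 and 38 from the start, and the other windows hold none. CpG dinucleotides number 31 in Prpf3, 16 in Prpf8, 23 in Snrnp200 and 19 in Prpf4. A promoter entry was found for 26 of the 35 genes, with a median of 23.5 CpG, against 8 over the 27025 genes of the table. Where a gene had several entries, the one with the most CpG was counted. Searched on both strands in any entry of a gene, the ETS motif CCGGAAGT was in 6 of 26 (23.1%), against 4.31% of the 27025 genes. The GC box was in 14 of 26 (53.8%), against 38.2%. The 27025 genes were not limited to those expressed here or matched for CpG, so they are an unlike set. Of the genes past the threshold with an entry, Sf3b2 held the ETS motif. Neither motif was in the windows of Prpf3, Prpf8 or Prpf4. A match is a description and was not tested.

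Prpf3 encodes a U4/U6 protein that stabilises the pairing of U4 with U6. It lies on chromosome 3 at 95830124 to 95855885 (GRCm38, minus strand), with up to 16 exons in a transcript. It had 93.3, 97.6 and 66.2 CPM in shSmndc1 libraries 1 to 3, against 58.1, 45.5 and 47.9 CPM in EV. Every shSmndc1 library was above every EV library, with the third shSmndc1 library the lowest of its group. On the log2 scale this was 0.76 ± 0.17 (edgeR adjusted p = 0.0223). In the second experiment it had 81.4, 109.6, 88.6 and 101 CPM in reporter-positive cells and 71.6, 104, 95.2 and 93.7 CPM in reporter-negative cells, against 53.5, 68.9, 52.4 and 64.3 CPM in EV_RIP. Both shRNA groups lay wholly above EV_RIP, and overlapped each other. On the log2 scale the change was 0.67 ± 0.14 in reporter-positive (edgeR adjusted p = 0.00752) and 0.61 ± 0.14 in reporter-negative cells (edgeR adjusted p = 0.0171). The call in shSmndc1 was lost without EV library 2 or 3 or shSmndc1 library 2 (0.66 to 0.72, edgeR adjusted p = 0.0801 to 0.106), and that in reporter-negative cells without EV_RIP library 1, negative library 2 or negative library 4 (0.54 to 0.59, edgeR adjusted p = 0.0558 to 0.0655) or without negative libraries 3 and 4 together (0.55, edgeR adjusted p = 0.224).

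Prpf4, whose protein is the partner of PRPF3, passed in no comparison, at 0.12 ± 0.13 in shSmndc1, 0.05 ± 0.10 in reporter-positive and -0.01 ± 0.10 in reporter-negative cells (log2 fold change ± SE). The ratio of Prpf3 to Prpf4 within a library, on the FPKM scale, was 1.63, 1.65 and 1.35 in shSmndc1, against 0.996, 0.942 and 1.05 in EV. It was 1.58, 1.96, 1.97 and 1.84 in reporter-positive and 1.42, 1.89, 2.189 and 1.89 in reporter-negative cells, against 1.15, 1.34, 1.06 and 1.21 in EV_RIP. No shRNA library had a ratio as low as any library of its own control. A ratio within a library does not depend on scaling between libraries; the partner genes were picked after the values were seen, and the ratios were not tested.

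Of the other U4/U6 genes, Prpf31 encodes a protein that binds the U4 snRNA stem and Sart3 a factor that re-forms U4/U6 after each round of splicing. Prpf31 had 64.8, 59.3 and 40.0 CPM in shSmndc1, against 81.3, 84.3 and 72.8 CPM in EV, without overlap, but did not pass the test (-0.54 ± 0.18, edgeR adjusted p = 0.0697). It passed with DESeq2 (-0.55, adjusted p = 0.0373), with no low-count filter (-0.56, edgeR adjusted p = 0.00794), without shSmndc1 library 1 (-0.68, edgeR adjusted p = 0.0426) and without shSmndc1 library 3 (-0.36, edgeR adjusted p = 0.0449). It was at -0.25 ± 0.11 in reporter-positive and -0.15 ± 0.11 in reporter-negative cells, neither past the threshold. Of its exonic bases, 18.1% overlap a gene on the other strand, so its counts are uncertain to that extent. Sart3 had 104, 111, 112 and 109.7 CPM in reporter-positive cells, against 84.1, 102, 82.3 and 84.8 CPM in EV_RIP. The groups did not overlap, though the second EV_RIP library came close to the lowest reporter-positive one. That is a log2 change of 0.30 ± 0.09 (edgeR adjusted p = 0.0373), and leaving out EV_RIP library 1, 3 or 4 or positive library 2, 3 or 4 ended the call (0.28 to 0.30, edgeR adjusted p = 0.0778 to 0.0927), as did no low-count filter (0.25, edgeR adjusted p = 0.211) or only the 2 groups in the fit (0.32, edgeR adjusted p = 0.0507). In reporter-negative cells Sart3 had 96.3, 103, 102 and 104 CPM, overlapping EV_RIP (0.20 ± 0.09), and in shSmndc1 it had 100.4, 103 and 103 CPM, against 89.3, 96.9 and 73.2 CPM in EV, without overlap (0.24 ± 0.13). Neither change was past the threshold.

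Prpf8 encodes the largest U5 protein and lies on chromosome 11 at 75486816 to 75509449 (plus strand), with up to 43 exons in a transcript. It had 829, 903 and 850.3 CPM in shSmndc1, against 605, 562 and 601 CPM in EV (log2 fold change 0.55 ± 0.12, edgeR adjusted p = 0.0240). It had 877, 868, 795 and 875 CPM in reporter-positive cells and 734, 864, 769.7 and 887 CPM in reporter-negative cells, against 530.4, 571, 548 and 519 CPM in EV_RIP. Every shRNA library stood above every library of its own control, and the sorted groups overlapped each other. Log2 fold changes were 0.66 ± 0.09 in reporter-positive (edgeR adjusted p = 0.00159) and 0.59 ± 0.09 in reporter-negative cells (edgeR adjusted p = 0.00743). No 75-base window of its longest transcript is shared with another gene. The call in shSmndc1 was lost without EV library 1, 2 or 3 or shSmndc1 library 2, though the change stayed at 0.51 to 0.55 (edgeR adjusted p = 0.0547 to 0.110); in reporter-negative cells it was lost without libraries 3 and 4 together (0.55, edgeR adjusted p = 0.137).

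Snrnp200, the U5 helicase also known as Brr2, lies on chromosome 2 at 127208386 to 127240451 (plus strand), with up to 45 exons. It had 357, 340.0, 340.1 and 337 CPM in reporter-positive cells and 311, 307, 333 and 286 CPM in reporter-negative cells, against 225, 244, 238 and 265 CPM in EV_RIP. The 3 groups did not overlap in any pairing, the reporter-positive libraries being the highest. This amounted to log2 changes of 0.50 ± 0.09 in reporter-positive (edgeR adjusted p = 0.00361) and 0.35 ± 0.09 in reporter-negative cells (edgeR adjusted p = 0.0228). The call in reporter-negative cells was lost without EV_RIP library 1 or 3 or without negative library 2, 3 or 4 (0.30 to 0.38, edgeR adjusted p = 0.0536 to 0.0702), and without negative libraries 3 and 4 together (0.34, edgeR adjusted p = 0.228). It was also lost with no low-count filter (0.28, edgeR adjusted p = 0.148) and with only the 2 groups in the fit (0.36, edgeR adjusted p = 0.0528). In shSmndc1 it had 374, 414 and 300.0 CPM, against 274, 292 and 283 CPM in EV, without overlap but short of the threshold (0.36 ± 0.14, edgeR adjusted p = 0.122). Without the third shSmndc1 library it passed (0.47, edgeR adjusted p = 0.0159).

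The other U5 genes, Prpf6 and Eftud2, did not pass in the edgeR fits that held all libraries of an experiment without a block. Prpf6, which encodes the protein linking U5 to U4/U6, was at 0.21 ± 0.16 in shSmndc1, 0.31 ± 0.16 in reporter-positive and 0.47 ± 0.16 in reporter-negative cells (smallest edgeR adjusted p = 0.0584, in reporter-negative cells). In reporter-negative cells it passed with DESeq2 (0.47, adjusted p = 0.0442), without EV_RIP library 2 (0.60, edgeR adjusted p = 0.0281) and without negative library 1 (0.58, edgeR adjusted p = 0.0105). Eftud2, the U5 GTPase, was at -0.10 ± 0.12 in shSmndc1, -0.21 ± 0.10 in reporter-positive and -0.21 ± 0.10 in reporter-negative cells. The FPKM ratio of Prpf8 to Eftud2 was 1.09, 1.20 and 1.24 in shSmndc1, against 0.787, 0.654 and 0.817 in EV. In the second experiment it was 1.07 ± 0.0885 in reporter-positive and 1.03 ± 0.152 in reporter-negative cells, against 0.589 ± 0.0479 in EV_RIP (SD, n = 4 each). The ratio of Snrnp200 to Eftud2 was 0.545 ± 0.0620 in shSmndc1 and 0.398 ± 0.0253 in EV (SD, n = 3 each), and 0.475 ± 0.0245 in reporter-positive and 0.429 ± 0.0311 in reporter-negative cells, against 0.292 ± 0.0374 in EV_RIP. For both ratios to Eftud2 all libraries of each shRNA group were above all of its control; 26.9% of the exonic bases of Eftud2 overlap a gene on the other strand, which limits its values. The ratio of Prpf8 to Prpf6 was 2.09 to 2.84 in shSmndc1 and 1.68 to 1.92 in EV, and 1.58 to 2.194 in reporter-positive and 1.38 to 1.82 in reporter-negative cells, against 1.19 to 1.56 in EV_RIP, so that reporter-negative cells overlapped their control. The ratio of Prpf8 to Snrnp200 overlapped the control in all 3 shRNA groups, at 1.97 to 2.57 in shSmndc1 and 1.74 to 2.00 in EV, and at 2.12 to 2.35 in reporter-positive and 2.10 to 2.81 in reporter-negative cells, against 1.78 to 2.14 in EV_RIP.

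**Figure D2:**
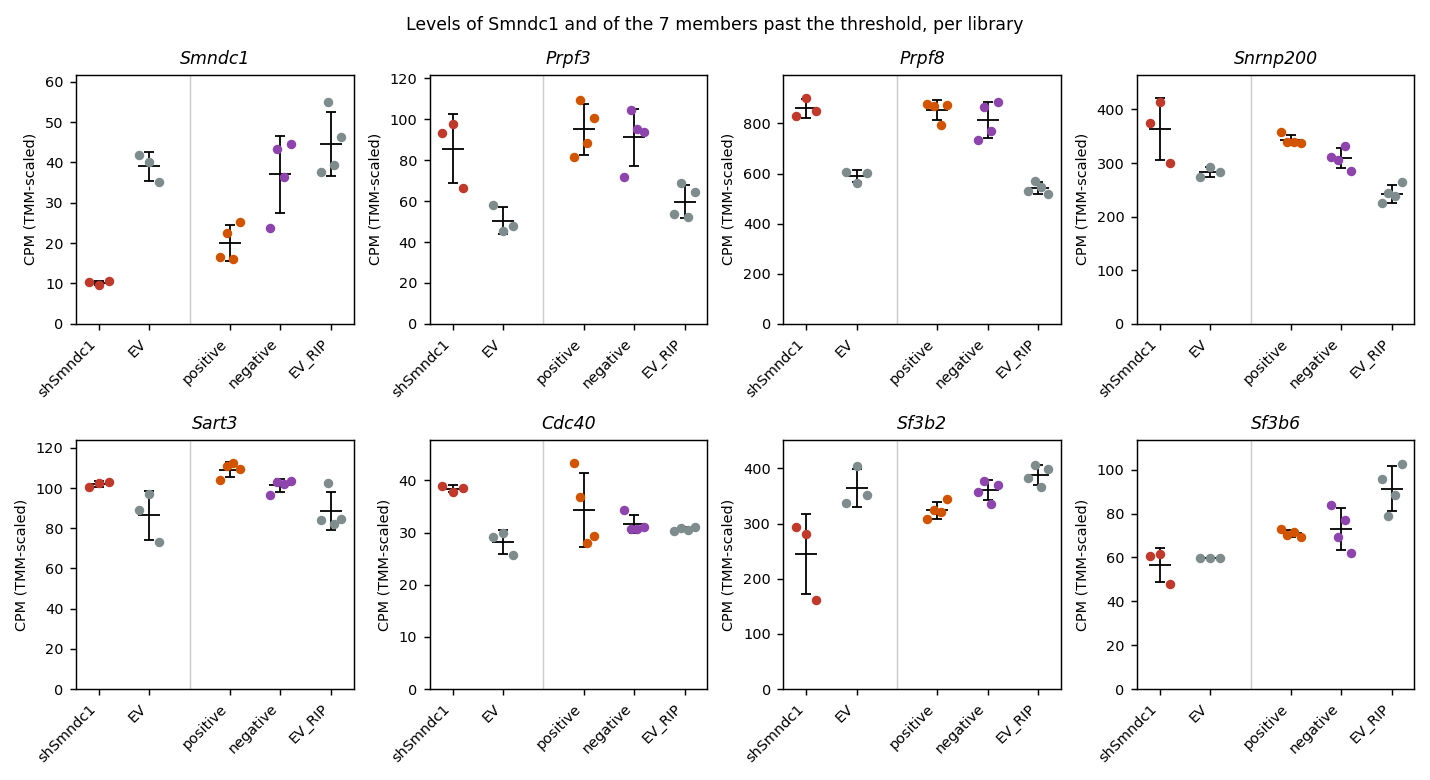
TMM-scaled CPM of Smndc1 and of the 7 genes past the threshold in any comparison, per library (points), with group mean and SD (bars), for shSmndc1 and EV on the left and reporter-positive, reporter-negative and EV_RIP cells on the right of each panel. Prpf3 and Prpf8 lie above their controls in all shRNA groups, and the third shSmndc1 library is low for Prpf3, Snrnp200 and Sf3b2.

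**Figure D3:**
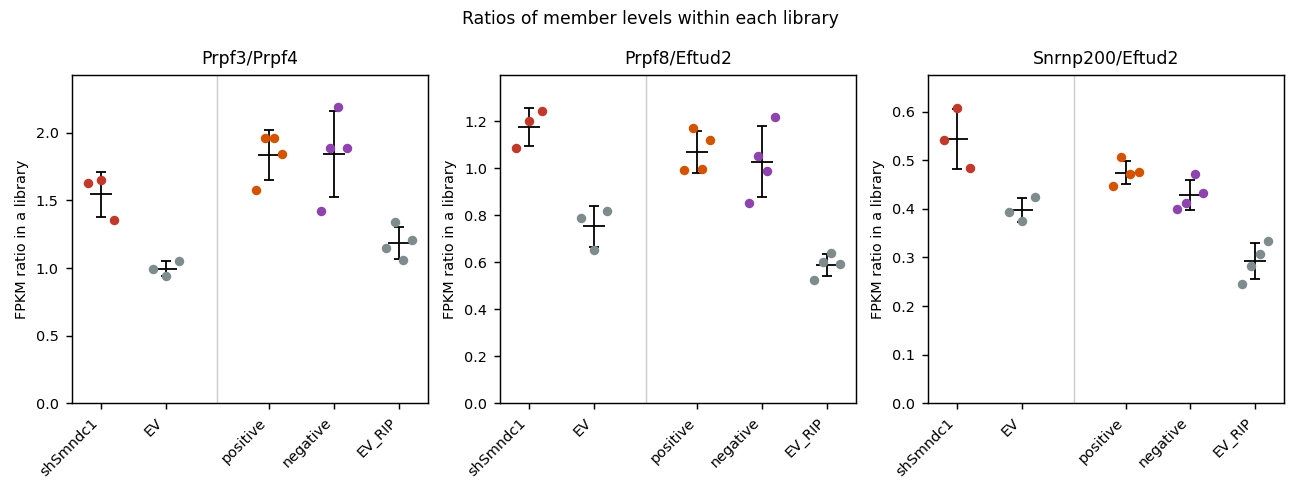
Ratio of FPKM levels within each library (points, with group mean and SD) for Prpf3 to Prpf4, Prpf8 to Eftud2 and Snrnp200 to Eftud2. Each shRNA group lies above its own control in all 3 panels; Prpf3 to Prpf4 is 1.35 to 1.65 in shSmndc1 and 0.942 to 1.05 in EV.

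Among the SF3B genes, whose proteins clamp the branch site, Sf3b2 and Sf3b6 fell in reporter-positive cells. Sf3b6 encodes the small subunit that lies next to the branch adenosine. It had 73.0, 70.3, 71.7 and 69.4 CPM in reporter-positive and 83.8, 69.2, 77.0 and 61.9 CPM in reporter-negative cells, against 95.9, 78.7, 88.3 and 102 CPM in EV_RIP. Reporter-positive libraries lay below all EV_RIP libraries, whereas the first reporter-negative library reached into their range. Log2 changes came to -0.36 ± 0.11 in reporter-positive (edgeR adjusted p = 0.0391) and -0.32 ± 0.11 in reporter-negative cells (edgeR adjusted p = 0.0641; under DESeq2 -0.32, adjusted p = 0.0469). Of the 8 left-out libraries, leaving out EV_RIP library 2 alone kept the call in reporter-positive cells; without each of the other 7 the change was -0.38 to -0.30 (edgeR adjusted p = 0.0541 to 0.106). In shSmndc1 it had 60.8, 61.6 and 47.8 CPM, against 59.9, 59.6 and 59.7 CPM in EV (-0.07 ± 0.13).

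Sf3b2, the gene of another SF3B subunit, had 308, 325, 320.2 and 345 CPM in reporter-positive and 357, 378, 336 and 371 CPM in reporter-negative cells, against 382, 406, 366 and 399 CPM in EV_RIP. Reporter-positive libraries were all below EV_RIP, and the log2 change came to -0.26 ± 0.09 (edgeR adjusted p = 0.0489), a call that ended when any one of the 8 libraries was left out (-0.30 to -0.23, edgeR adjusted p = 0.0663 to 0.126). RLE scaling, no low-count filter and only the 2 groups in the fit ended it too (-0.31 to -0.24, edgeR adjusted p = 0.0577 to 0.107). In shSmndc1 it had 293, 282 and 162 CPM, against 337, 404 and 353 CPM in EV, the lowest log2 fold change of the 35 genes there (-0.57 ± 0.21) yet not past the threshold (edgeR adjusted p = 0.104), which it passed with no low-count filter (-0.59, edgeR adjusted p = 0.0101). The third shSmndc1 library was the lowest of its group for 29 of the 35 genes, beside 51.6% of all expressed genes, and held 8.82 CPM of Rn7sk and 1083 CPM of Malat1, against 2.57 to 4.38 and 174 to 303 CPM in the other shSmndc1 libraries. Its part in these values was not tested. Sf3b5 was at 0.30 ± 0.10 in shSmndc1 (edgeR adjusted p = 0.0788) and -0.03 ± 0.23 in reporter-positive cells. Sf3b1, Sf3b3 and Sf3b4 stayed between 0.07 and 0.29 in all 3 comparisons and passed in none, except that Sf3b4 passed in reporter-negative cells without negative library 1 (0.39, edgeR adjusted p = 0.0393). Of the 75-base windows of the longest Sf3b4 transcript 43.8% also occur in another gene, so its counts are uncertain.

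Of the SF3A genes, none passed in the edgeR fits that held all libraries of an experiment without a block. Sf3a2, the subunit with the smallest p, had 79.1, 92.4, 105 and 96.5 CPM in reporter-positive and 67.8, 107, 95.8 and 116 CPM in reporter-negative cells, against 68.4, 85.5, 55.4 and 62.9 CPM in EV_RIP. Both shRNA groups overlapped EV_RIP, and the change was 0.45 ± 0.17 in reporter-positive (edgeR adjusted p = 0.0701) and 0.50 ± 0.17 in reporter-negative cells (edgeR adjusted p = 0.0553). Sf3a2 passed in reporter-negative cells with DESeq2 (0.51, adjusted p = 0.0396), and without EV_RIP library 2 or negative library 1 Sf3a2 and Sf3a1 both passed there (0.50 to 0.64, edgeR adjusted p = 0.00571 to 0.0416). In reporter-positive cells Sf3a2 passed without EV_RIP library 2 (0.59, edgeR adjusted p = 0.0292) and with only the 2 groups in the fit (0.47, edgeR adjusted p = 0.0433). In shSmndc1 it had 79.6, 85.5 and 74.5 CPM, against 71.4, 70.2 and 59.5 CPM in EV (0.25 ± 0.12, edgeR adjusted p = 0.178). Of its exonic bases 16.1% overlap another gene. In the core of the U2 snRNP, Snrpb2, the U2 B'' protein gene, had 31.9, 29.1 and 17.4 CPM in shSmndc1, against 36.9, 38.4 and 34.5 CPM in EV. The groups did not overlap and the change did not pass (-0.48 ± 0.21, edgeR adjusted p = 0.139), except with no low-count filter (-0.50, edgeR adjusted p = 0.0285). In the second experiment it had 38.6, 44.6, 41.5 and 49.1 CPM in reporter-positive (-0.17 ± 0.10) and 46.8, 45.6, 52.0 and 52.8 CPM in reporter-negative cells (0.01 ± 0.10), against 46.9, 51.4, 48.5 and 49.1 CPM in EV_RIP, and the groups overlapped. Snrpa1, encoding the U2 A' protein, was between -0.14 and 0.14 in the 3 comparisons.

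The genes for 3' splice site recognition did not pass with all libraries and no block. Sf1, the branch site binding protein, had 171, 213, 238 and 242 CPM in reporter-positive and 176, 249, 304 and 283 CPM in reporter-negative cells, against 184, 209, 174 and 208 CPM in EV_RIP. The first library of each shRNA group lay inside the EV_RIP range or below it. The change was 0.16 ± 0.16 in reporter-positive (edgeR adjusted p = 0.506), 0.38 ± 0.16 in reporter-negative (edgeR adjusted p = 0.106) and -0.07 ± 0.14 in shSmndc1 cells. In reporter-negative cells Sf1 passed without negative library 1 (0.52, edgeR adjusted p = 0.00930). In the first experiment it had 242, 237 and 199 CPM in shSmndc1, against 257, 251 and 204 CPM in EV, with overlap. U2af1 and U2af2, the small and large U2AF subunits, were at 0.07 ± 0.20 and 0.07 ± 0.12 in shSmndc1. Of the 75-base windows of the longest U2af1 transcript 53.9% also occur in another gene, and of those of U2af2 13.0%, which leaves their counts uncertain. Puf60, a U2AF-related protein gene, was at 0.01 ± 0.12 and Rbm17, an alternative splicing factor that binds SF3B1, at -0.25 ± 0.13 in shSmndc1, and only Rbm17 of this group did not overlap with EV.

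The 7 Sm genes, whose proteins form the ring around U1, U2, U4 and U5 snRNA, had no call in any comparison with all libraries and no block; Snrpd3 passed in reporter-negative cells without negative library 1 (-0.36, edgeR adjusted p = 0.0189). Their log2 fold changes ran from -0.05 to 0.24 in shSmndc1, -0.07 to 0.33 in reporter-positive and -0.25 to 0.33 in reporter-negative cells. Snrpg, with the smallest p, had 49.7, 50.1 and 46.0 CPM in shSmndc1, against 41.8, 42.3 and 39.3 CPM in EV, without overlap (0.24 ± 0.11, edgeR adjusted p = 0.153). In the second experiment Snrpg had 71.1, 65.6, 81.8 and 66.2 CPM in reporter-positive and 69.6, 59.6, 77.8 and 63.7 CPM in reporter-negative cells, against 76.8, 58.6, 66.7 and 67.3 CPM in EV_RIP, with overlap. Snrpf, also without overlap in shSmndc1, shares 85.4% of its exonic bases with genes on the other strand. Of the 75-base windows of the longest transcript, 16.0% for Snrpg and 17.3% for Snrpe also occur in another gene.

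Cdc40, the second-step factor known as Prp17 in yeast, had 39.0, 37.7 and 38.5 CPM in shSmndc1, against 29.2, 29.9 and 25.6 CPM in EV. The groups did not overlap, at a log2 change of 0.44 ± 0.11 (edgeR adjusted p = 0.0356). The call held when shSmndc1 library 3 was left out, and was lost without any one of the other 5 libraries (0.37 to 0.48, edgeR adjusted p = 0.0579 to 0.147) and with no low-count filter (0.42, edgeR adjusted p = 0.0736). In the second experiment it had 43.4, 36.7, 27.9 and 29.4 CPM in reporter-positive and 34.3, 30.6, 30.8 and 31.1 CPM in reporter-negative cells, against 30.4, 30.9, 30.6 and 31.0 CPM in EV_RIP. Reporter-positive libraries fell on both sides of EV_RIP (0.16 ± 0.13, edgeR adjusted p = 0.397), and reporter-negative cells were at 0.05 ± 0.13. Aqr, an RNA helicase of the catalytic spliceosome, was at 0.30 ± 0.12 in shSmndc1 (edgeR adjusted p = 0.131). Of the bridging genes, Sart1, a tri-snRNP protein required for its joining, had 92.4, 102, 108 and 103 CPM in reporter-positive and 96.7, 115, 124 and 129 CPM in reporter-negative cells, against 86.6, 113, 89.5 and 91.9 CPM in EV_RIP, and overlapped EV_RIP in both. The change was 0.09 ± 0.12 in reporter-positive and 0.29 ± 0.12 in reporter-negative cells (edgeR adjusted p = 0.101), past the threshold without EV_RIP library 2 or negative library 1 (0.36 to 0.38, edgeR adjusted p = 0.0240 to 0.0443). In shSmndc1 it had 83.6, 87.0 and 75.1 CPM, against 82.0, 90.8 and 83.4 CPM in EV (-0.06 ± 0.11), and Usp39, the other bridging gene, at 0.05 ± 0.11.

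**Figure D4:**
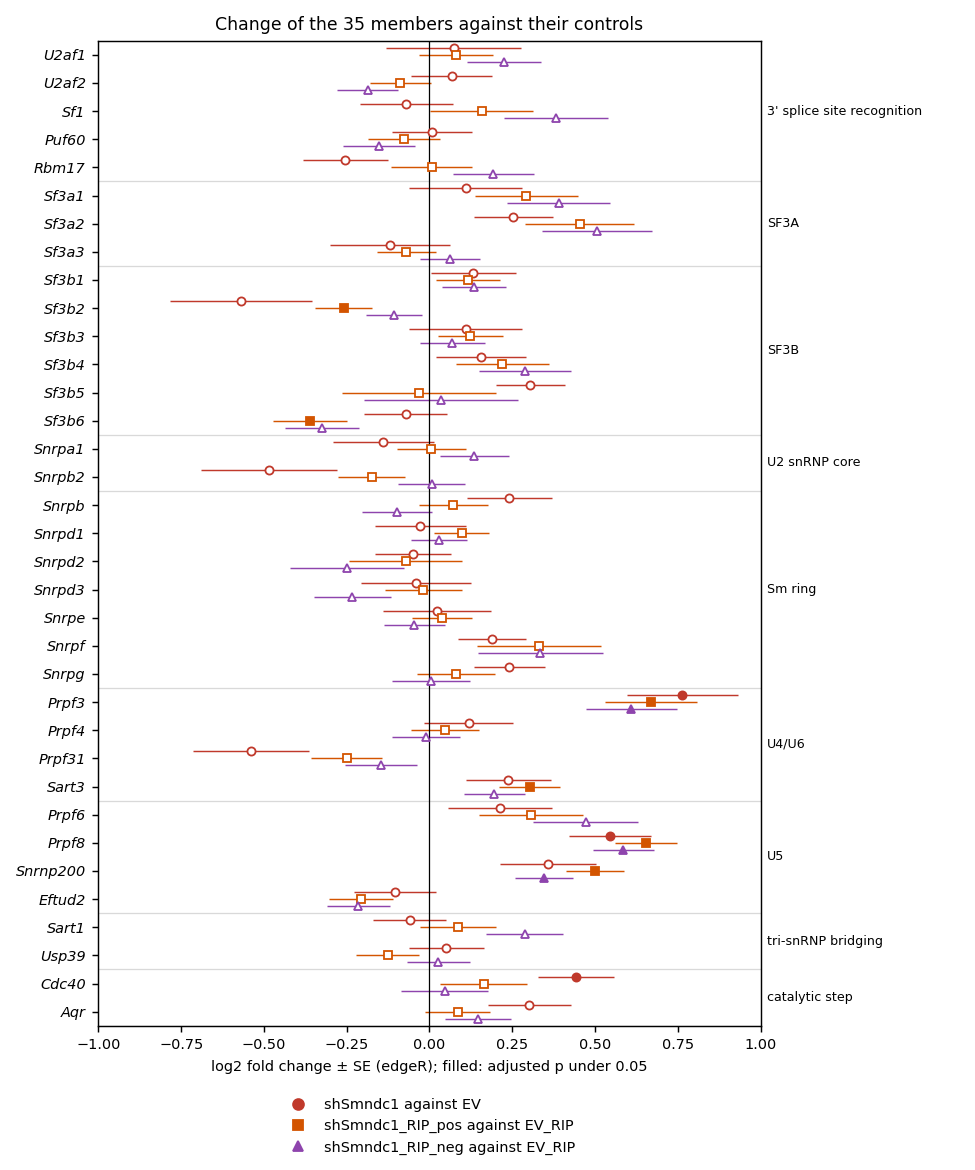
Log2 fold change ± SE of the 35 genes by role (rows), for shSmndc1 against EV (circles), reporter-positive against EV_RIP (squares) and reporter-negative against EV_RIP (triangles); filled symbols passed edgeR's adjusted p threshold of 0.05. Prpf3 and Prpf8 are filled in all 3 comparisons and lie between 0.55 and 0.76.

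Counting genes whose groups did not overlap, 14 of 35 were so in shSmndc1 against EV (39.5% of all genes tested), 6 of 35 in reporter-positive against EV_RIP (23.4%) and 3 of 35 in reporter-negative against EV_RIP (14.4%). The 6 and the 3 were the genes past the threshold. Across the 35 genes the shSmndc1 change and the reporter-positive change, which share no library, had Pearson's r = 0.779 and Spearman's rho = 0.734, with 26 of 35 of like sign; over the 17891 genes tested in both these were 0.760, 0.739 and 78.5%. The likeness was therefore close to that of genes in general. For the reporter-negative change the values were 0.536 and 0.496, with 23 of 35 of like sign, against 0.597, 0.579 and 70.7% over all genes. Genes of one library share its depth and composition and are not replicates, so these are descriptions.

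Between reporter-positive and reporter-negative cells, 0 of 35 genes passed, as did 0% of all 18897 genes tested with edgeR. Groups did not overlap for 4 of 35 genes (Snrpb, Sart3, Snrnp200 and Usp39), beside 6.58% of all genes. The members' differences ran from -0.23 to 0.21 on the log2 scale, with Prpf8 at 0.07 ± 0.09, Prpf3 at 0.06 ± 0.14 and Snrnp200 at 0.15 ± 0.09, and 0 of 35 had an unadjusted p below 0.05, against 2314 of all genes. DESeq2 also gave 0 members, with 315 genes called. With the replicate number as a block, edgeR gave 0 members and 78 genes. A block fit on these 8 libraries alone, added after the data were seen, gave 0 members and 1517 genes (8.43%), and 3 of 35 at an unadjusted p below 0.05, against 4461 of 17994 genes. Smndc1 was 0.89 ± 0.21 lower in reporter-positive cells on the log2 scale (edgeR adjusted p = 0.127). It passed with the replicate block (-0.87, edgeR adjusted p = 0.0346), with the block on these libraries alone (-0.86, edgeR adjusted p = 0.000954), with DESeq2 (-0.88, adjusted p = 0.0104), with no low-count filter (-0.87, edgeR adjusted p = 0.0158) and without negative library 1 (-1.04, edgeR adjusted p = 0.0122). The differences between the effect in reporter-positive cells and that in shSmndc1, each against its own control, lay between -0.35 and 0.30 for the 35 genes; 0 of 35 passed edgeR's test and 0 had an unadjusted p below 0.05, while over all 20036 genes 0% passed, with 861 at an unadjusted p below 0.05 and 3 called by DESeq2. Cdc40, past the threshold in shSmndc1 alone, was thus not shown to differ between the experiments (-0.29 ± 0.18, edgeR adjusted p = 0.998).

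A list of 70 other spliceosome genes, of the U1 snRNP, U2-associated factors, the LSm ring, the B complex, the catalytic steps and the minor spliceosome, had 12 genes past the threshold in shSmndc1 against EV, 4 higher and 8 lower, beside 14.7% of all genes tested, with a median log2 fold change of -0.04. The genes with the smallest p were Rbm5, a regulator of 3' splice site pairing, at 53.5 ± 3.61 CPM in shSmndc1 and 85.6 ± 6.95 CPM in EV (-0.68 ± 0.12), and Rbm22, which contacts U6 in the catalytic core, at 91.0 ± 1.81 CPM in shSmndc1 and 59.0 ± 4.54 CPM in EV (0.63 ± 0.11). Dnajc8 followed at 39.6 ± 9.16 CPM in shSmndc1 and 85.9 ± 20.3 CPM in EV (-1.12 ± 0.21), and Snrnp35, a minor spliceosome gene, at 11.4 ± 1.28 CPM in shSmndc1 and 19.9 ± 3.14 CPM in EV (-0.80 ± 0.16; means ± SD, n = 3 each).

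In reporter-positive cells 11 of the 70 passed against EV_RIP, 3 higher and 8 lower (median 0.04), beside 17.4% of all genes tested. Dnajc8 stood at 63.1 ± 6.02 CPM in reporter-positive cells and 105 ± 13.7 CPM in EV_RIP (-0.73 ± 0.11), and Cherp, a U2-associated gene, at 198 ± 28.5 CPM in reporter-positive cells and 125 ± 13.4 CPM in EV_RIP (0.67 ± 0.15; means ± SD, n = 4 each). Rbm22 was at 0.46 ± 0.11 and Isy1, a catalytic-step gene, at -0.56 ± 0.13 on the log2 scale. In reporter-negative cells 10 passed, 5 higher and 5 lower (median 0.07), beside 13.9% of all genes tested. Dhx38, the helicase Prp16, was at 103 ± 15.2 CPM in reporter-negative cells and 71.7 ± 5.54 CPM in EV_RIP (0.53 ± 0.11). Cherp was at 0.69 ± 0.15, Snrnp48, a minor spliceosome gene, at 0.95 ± 0.22, and Lsm6, of the U6 LSm ring, at -0.51 ± 0.13 on the log2 scale. None of the 70 passed between reporter-positive and reporter-negative cells by edgeR, where 9 had an unadjusted p below 0.05, or in the difference between experiments, where 1 did. In these bulk libraries, fewer cells with a transcript and less of it per cell cannot be told apart.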

How the data were processed

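RNA of 18 alphaTC1 libraries was read as 75-base paired ends from stranded mRNA libraries, per the labels' protocols. The authors deposited raw counts per gene, 1 table per experiment, and FPKM tables, which equal those counts divided by gene length and median-of-ratios size factors (largest relative deviation 8.9e-16 over 21364 and 18662 genes). STAR 2.7.5a, Picard 2.19.2 and DESeq2 1.30.0 with GRCm38/mm10 are named in the submitters' processing notes; which program counted reads, and whether by strand, is not given in the sources used here, so reads of genes that overlap on opposite strands cannot be told apart. Gene coordinates in the tables match GENCODE M21 for all 35 members.

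From the deposited counts, edgeR 4.0.16 (R 4.3.3) was run with filterByExpr, TMM factors and its quasi-likelihood test, and p-values were adjusted by Benjamini-Hochberg over all genes tested, with a call at an adjusted p below 0.05. One fit held the 6 libraries of experiment 1 and the 12 of experiment 2 another, with no replicate block; the difference of effects was a contrast over all 18. The scripts were tested on simulated data. Alternatives were RLE scaling, no low-count filter, DESeq2 1.42.0, the replicate number as a block, only the 2 groups compared, and leaving out libraries. Levels within a gene are CPM on TMM-scaled totals, and levels between genes are the deposited FPKM. Arithmetic on FPKM was descriptive.

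Replicate numbers of reporter-positive and reporter-negative libraries paired, as read from the data and not stated in the labels: same-numbered libraries had correlated deviations from their group means (r = 0.282 to 0.747 over 11503 genes). Those of EV and shSmndc1 (r = -0.021 to 0.344) and of EV_RIP against either sorted group (r = -0.362 to 0.647) did not.

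The members, the lists and the tests were chosen with earlier results of these data known. Any of the 35 members may be named; values in every library are given for those past the threshold in any comparison and for the member with the smallest p in each of 9 role groups, and some further members are shown beside them. Of the other 70 genes, up to 4 past the threshold with the smallest p are named per comparison.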

Additional observations from a re-analysis of the deposited data

Results flagged for a closer look

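Of 108 sets of 4 libraries examined (35 genes and Smndc1 in 3 groups), 8 held 1 library far from the other 3; chance gives about 1 in 20. The second EV_RIP library was high for Sf3a1 (332 CPM, others 232 to 245 CPM), Sart3 (102 CPM, others 82.3 to 84.8 CPM) and Prpf6 (197 CPM, others 143 to 145 CPM). The second reporter-negative library was low for Snrpd2 (127 CPM, others 149 to 152 CPM), and the first was high for Cdc40 (34.3 CPM, others 30.6 to 31.1 CPM). The third reporter-positive library was low for Snrpd3 (179 CPM, others 193 to 194 CPM) and Prpf8 (795 CPM, others 868 to 877 CPM), and the first was high for Snrnp200 (357 CPM, others 337 to 340.1 CPM).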

How the results depend on the processing

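Prpf3, Prpf8 and Snrnp200 in reporter-positive cells passed under all 13 alternatives run. In all, 373 log2 fold changes were recomputed, for Smndc1, the members past the threshold and the member with the smallest p in each role group. Of these, 298 kept their direction and side of the threshold, many of them changes that did not pass in either fit. Calls were lost in 53 and gained in 20, and 2 changed direction. Other named genes, such as Prpf31 and Prpf6, are not among the 373. Counts of calls are not among them either and are given below. In shSmndc1 against EV, no low-count filter gave 5 members and 4165 genes. There the replicate block, whose numbers did not pair, gave Prpf31 an adjusted p of 0.0311 (log2 change -0.57) and Cdc40 one of 0.0533 (0.44). In reporter-negative cells against EV_RIP, DESeq2 gave 6 members and 4037 genes, the replicate block 8 members and 4597 genes (adding Prpf6, Sf3a1, Sf3a2, Sf3b6 and Sf1 at edgeR adjusted p = 0.00939 to 0.0499), only the 2 groups compared 1289 genes, and leaving out negative libraries 3 and 4 gave 0 members and 4 genes. In reporter-positive cells against EV_RIP the replicate block gave 5079 genes, with Prpf6 and Sf3a2 added to the 6 members (edgeR adjusted p = 0.0475 and 0.0380). Reporter-positive against reporter-negative cells had 150 genes with no filter, 315 with DESeq2, 78 with the replicate block and 1517 with the block on those libraries alone, with 0 members in each. The difference between experiments had 5 genes with no filter, 3 with DESeq2 and 1 with the block. Leaving out 1 library gave 0 to 5 members in shSmndc1 (181 to 3336 genes), 1 to 11 in reporter-negative cells (159 to 5831), 3 to 6 in reporter-positive cells (1258 to 3586), 0 between sorted groups (0 to 517) and 0 for the difference (0 genes). Members were 0 without EV library 2 or 3 or shSmndc1 library 2, and 5 without shSmndc1 library 3. They were 11 without negative library 1 and 8 without EV_RIP library 2. Leaving out 1 library gave Sf3b6 in shSmndc1 a log2 change of -0.14 to 0.033, turned by shSmndc1 library 3, and no filter gave Cdc40 in reporter-negative cells -0.020; neither was past the threshold. The causes were not tested. At the shallowest library the lowest member count was 256.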
